A study of Homo sapiens with 66 samples.

Results

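The 8 genes that encode the subunits of the chaperonin TRiC, also called CCT, were followed by RNA sequencing in 2 human multiple myeloma cell lines. They are TCP1, CCT2, CCT3, CCT4, CCT5, CCT6A, CCT7 and CCT8, taken by name from a count table of 20167 genes after its Ensembl identifiers had been matched to symbols, and all 8 passed the filter on low counts in every comparison. The table holds 66 libraries in 22 groups of 3. AMO1 cells (labelled AMO-1 WT) made up 12 groups: DMSO, NCP22, NCP26, halofuginone (HFG) and halofuginol, each at 1 µM for the compounds, and carfilzomib (CFZ), all for 6 h or 24 h. L363-CFZr cells, a subline of L363 resistant to CFZ, made up the other 10 groups, with the same treatments except CFZ. DMSO was the solvent control, compounds were also compared with one another, and CFZ was given at 10 nM, a dose that the labels do not state. Both are established myeloma lines grown alone, and the resistant line is a single subline with no sensitive L363 parent among the groups, so line and resistance cannot be told apart.

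TRiC is a barrel of stacked rings in the cytosol in which each ring holds 1 copy of each of 8 related subunits. It binds newly made proteins, closes over them with ATP and releases them folded, and actin and the tubulins are its best known clients. Prefoldin hands clients to it, and the phosducin-like proteins bind it as co-chaperones. It also folds WD-repeat proteins such as the G protein beta subunits and CDC20. HFG and NCP26 inhibit the prolyl-tRNA synthetase activity of EPRS, the enzyme that loads proline onto its tRNA. NCP22 is the pyrazinamide-based compound from which NCP26 was developed, and halofuginol is an analogue of HFG in the febrifugine family. In the paper's assay both also bound the human enzyme. NCP22 bound less tightly than NCP26 in the presence of proline, and halofuginol less tightly than HFG in the presence of ATP. CFZ inhibits the proteasome and is used against myeloma, a tumour of plasma cells that make large amounts of antibody.

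The subunit genes lie on separate stretches of the genome, and only CCT4 and CCT7 share a chromosome, 2. In GENCODE release 44 on GRCh38, TCP1 (ENSG00000120438) spans chr6:159778498-159789703 on the minus strand, CCT2 (ENSG00000166226) chr12:69585426-69601570 on the plus strand, and CCT4 (ENSG00000115484) chr2:61868085-61888671 on the minus strand. All are protein coding. Promoter windows of 300 bases (250 before and 50 after an annotated start) were held by RefSeq (GRCh38.p14) for 7 of the 8 genes. The stretches below lie upstream of the gene as GENCODE draws it and are shown because TCP1 and CCT4 had the largest response to CFZ among the subunits, with CCT2 beside them as a subunit with a small response. Capitals mark GAANNTTC or TTCNNGAA (a pair of heat shock factor units), CCAAT (the box bound by NF-Y), GGGCGG (the box bound by SP1) and the E-box CACGTG, on either strand.
TCP1, chr6:159789704-159789852, minus strand: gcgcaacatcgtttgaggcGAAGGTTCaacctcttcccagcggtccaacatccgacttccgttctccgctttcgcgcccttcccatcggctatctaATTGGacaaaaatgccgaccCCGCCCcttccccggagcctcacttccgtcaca
CCT4, chr2:61888672-61888906, minus strand: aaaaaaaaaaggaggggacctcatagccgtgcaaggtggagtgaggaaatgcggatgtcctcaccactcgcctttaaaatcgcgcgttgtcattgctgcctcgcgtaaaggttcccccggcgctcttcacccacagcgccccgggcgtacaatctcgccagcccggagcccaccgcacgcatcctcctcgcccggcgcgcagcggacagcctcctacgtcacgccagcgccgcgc
CCT2, chr12:69585209-69585425, plus strand: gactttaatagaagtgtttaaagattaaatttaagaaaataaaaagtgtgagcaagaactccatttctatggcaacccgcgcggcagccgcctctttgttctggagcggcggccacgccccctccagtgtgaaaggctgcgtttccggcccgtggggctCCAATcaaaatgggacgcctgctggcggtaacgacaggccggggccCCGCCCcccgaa

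The TCP1 stretch holds GAAGGTTC at chr6:159789826-159789833, followed by a CCAAT match and a GGGCGG match. GAAGGTTC lies at -231 to -224 from the RefSeq start, which is inside the gene as GENCODE draws it. The CCT2 stretch holds CCAAT and GGGCGG, and the CCT4 stretch holds none of the 5 letter patterns. CCT2 has a second RefSeq start further downstream, whose window lies inside the gene and holds GAAATTTC within an exon. A TTCNNGAA match, TTCTGGAA, stands in an exon of CCT4, 38 to 45 bases after a RefSeq start. The 7 genes have 9 windows in all. GAANNTTC was found in 2 of 9 windows and TTCNNGAA in 1 of 9, beside 6.77% and 7.74% of all 35116 RefSeq promoter windows of that length. CCAAT was in 4 of 9 (34.6% of all windows), GGGCGG in 6 of 9 (45%) and CACGTG in 0 of 9 (7.26%). A run of 3 heat shock units, in either order, was in 0 of 9 (0.49% of all windows for each order). The patterns can overlap one another and a match is a run of letters, not a tested site.

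Libraries held 1666325 to 6596543 counts (median 3165566). A single subunit gene had 250 to 4451 counts in a library (median 1129), so that the counting error alone was 1.5% to 6.32% of the value. Values are given as CPM, the usual unit of counts relative to the library total, after scaling of the libraries by TMM over all 66. Differences are log2 fold changes with their standard errors (SE) from edgeR's quasi-likelihood test fitted to the libraries compared, with p-values adjusted by the Benjamini-Hochberg method over all genes tested and 0.05 as the threshold. A subunit that passed is said to have risen or fallen. With 3 libraries against 3, an exact two-sided permutation test of a single gene could not go below p = 0.1. Nothing in the labels states that replicates came from separate cultures. The study's statistics section gives biological triplicates as its general rule, and its sequencing methods give triplicates for all conditions. The p-values cover the spread between these libraries, which may be technical. In bulk RNA a change of the cell mixture and a change of RNA per cell cannot be told apart. All 9 plasma cell markers checked were at a median of 10 CPM or more in both lines, with SDC1 at medians of 2263 CPM in AMO1 and 595 CPM in L363-CFZr. The 3 markers each of B cells, T cells, monocytes and stromal cells were all under that level, and their sums reached at most 9.65 CPM in any library.

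A pair of libraries stood apart from their groups: replicate 2 of AMO1 CFZ at 24 h and replicate 2 of L363-CFZr DMSO at 24 h. Their log2 CPM correlated with those of their group mates at means of 0.941 and 0.939, against 0.969 to 0.992 in the groups without them. Both had more genes detected (14414 and 14353) than their mates, and all 8 subunits were lower in them than in both mates. The summed subunit level was 2117 CPM in the CFZ library against 3086 and 3234 CPM, and 1532 CPM in the DMSO library against 2432 and 2444 CPM. Tests of their groups are therefore given with and without the library. More genes still (15581, against 13577 and 13636 in its mates) were detected in replicate 1 of AMO1 NCP26 at 6 h. Its mean correlation with its mates was 0.97, within the range above, and it was not set apart. Leaving out 1 library at a time gave 4 to 6 subunits called for NCP26 against DMSO in AMO1 at 6 h. Library numbers in the deposited column names fall into 3 sets of 22. Set 1 holds all AMO1 libraries of 6 h, those of DMSO at 24 h and CFZ replicate 1 of 24 h. Set 2 holds the remaining AMO1 libraries of 24 h and the L363-CFZr libraries of 6 h with DMSO, NCP26 and NCP22 replicates 1 and 2, and set 3 the rest of L363-CFZr. Only AMO1 CFZ at 24 h and L363-CFZr NCP22 at 6 h span sets. A term for the set therefore rests on 1 library against 2 in each of these groups. The library of CFZ that stood apart is among them. Fits of all groups, with or without that term, were not repeated without the libraries that stood apart. Pellets of 6 h were frozen overnight and those of 24 h kept on ice before extraction, so time and storage cannot be told apart.

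In AMO1 cells with DMSO for 6 h, CCT3 was the most abundant subunit mRNA and TCP1 and CCT5 were among the least. Per kilobase of the longest transcript, CCT3 stood at 415 ± 18.8 CPM (SD, n = 3 here and below), followed by CCT7 at 308 ± 23.2, CCT8 at 258 ± 14.4 and CCT2 at 238 ± 3.46. CCT6A (150 ± 6.01), CCT4 (149 ± 7.92), TCP1 (144 ± 0.871) and CCT5 (136 ± 1.38) followed closely, and CCT6A, CCT4 and TCP1 did not differ beyond their spread. The proteins enter each ring in equal number, while their mRNAs per kilobase ran from 136 to 415 CPM on this scale. With the mean transcript length in place of the longest, CCT3 (778) and CCT7 (697 CPM per kilobase) remained the highest of the 8, CCT4 (251) was the lowest and CCT5 (383) moved to the fifth place, so the order of the lower members depends on the length used. In L363-CFZr with DMSO for 6 h, CCT3 (350 ± 12) and CCT7 (226 ± 12.5 CPM per kilobase) again led. CCT6A came next there at 198 ± 4.97, and TCP1 was last at 70.2 ± 5.13.

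**Figure D1:**
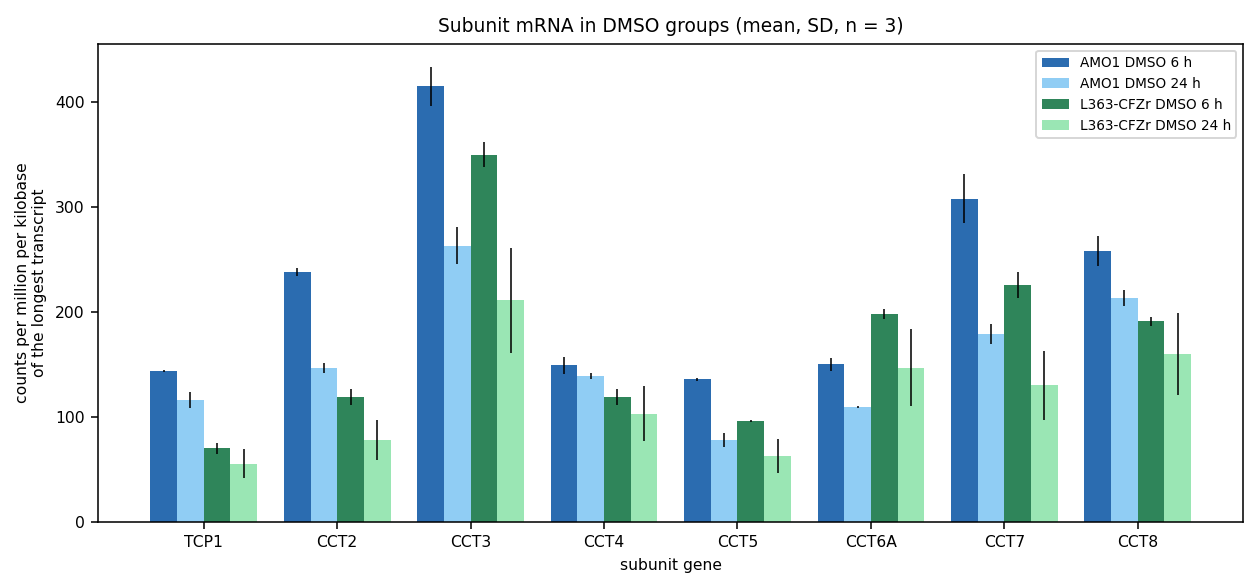
Mean level of each subunit mRNA in the 4 DMSO groups, in CPM per kilobase of the longest transcript (bars) with SD over 3 libraries (lines). CCT3 is the highest bar of every group, and CCT6A is the only subunit whose L363-CFZr bars are above the AMO1 bars of the same time.

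With DMSO the level of every member except CCT6A was lower in the resistant line than in AMO1, in libraries of different sets. TCP1 was at 338, 339 and 342 CPM in AMO1 with DMSO for 6 h and at 176, 152 and 167 CPM in L363-CFZr, a log2 difference of -1.06 (SE 0.07, adjusted p = 1e-10). CCT2 was at 518, 528 and 514 CPM against 282, 251 and 252 CPM, a log2 difference of -1.01 (SE 0.07, adjusted p = 9.5e-11). For both, the groups were far apart, with the resistant line near 0.48 and 0.49 of the AMO1 level. CCT6A went the other way, with 370, 400 and 392 CPM in AMO1 against 525, 511 and 499 CPM in L363-CFZr (log2 0.38, SE 0.07, adjusted p = 4.5e-05). The other 5 members were lower by -0.27 (CCT3) to -0.52 (CCT5) on the log2 scale. In all, 7 subunits were called lower and 1 higher, where 31.3% and 28.9% of 10593 genes were. The lines were of different sets at 6 h. Only AMO1 CFZ at 24 h, with its library that stood apart, links those sets. With a term for the set in a fit of all groups, the SEs rose to 0.18 to 0.20. TCP1 (-0.89), CCT2 (-0.87) and CCT6A (0.70) were then still called and the other 5 were not, at backgrounds of 18.6% lower and 15.8% higher. The values of these 5 also moved and lay between -0.33 (CCT5) and -0.02 (CCT3). At 24 h TCP1 (-1.07, SE 0.18) and CCT2 (-0.91, SE 0.18) were called lower, at a background of 20.5%. The lines were of different sets at this time too. With the term for the set TCP1 (-0.79, SE 0.25, adjusted p = 0.0178) was called lower, at a background of 10.5%, and CCT6A (0.91, SE 0.25, adjusted p = 0.0054) higher, at a background of 10.2%, while CCT2 was at -0.63 (adjusted p = 0.0538). The other 5 then lay between -0.21 (CCT7) and 0.06 (CCT8) and were not called. Without L363-CFZr DMSO replicate 2, 6 members were called lower, at a background of 33.4%, and CCT6A was called higher at 0.61 (SE 0.05, at a background of 31.5%), while CCT5 was at -0.13 (adjusted p = 0.081).

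The subunits also fell between 6 h and 24 h in untreated cells, a comparison chosen after the data had been seen. In AMO1 with DMSO the sum of the 8 was 3992, 4114 and 3960 CPM at 6 h and 2742, 2685 and 2907 CPM at 24 h, without overlap. CCT5 changed most (log2 -0.79, SE 0.07), close to CCT7 (-0.78, SE 0.06), and CCT4 least (-0.10, SE 0.06, adjusted p = 0.206). The count was 7 of 8 lower, where 23.4% of 10665 genes were. In L363-CFZr with DMSO, CCT3 (-0.73, SE 0.19) and CCT7 (-0.80, SE 0.20) were called lower, at a background of 5.81%. Without replicate 2 of 24 h the differences were smaller and better determined, and 5 members were called lower at a background of 21%: CCT7 (-0.60), CCT3 (-0.54), CCT2 (-0.42), CCT5 (-0.41) and CCT6A (-0.23). CCT4 was thus the subunit with the value nearest 0 in both lines (-0.02, SE 0.07, in the latter). In L363-CFZr the 2 times were also of different sets.

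**Figure D2:**
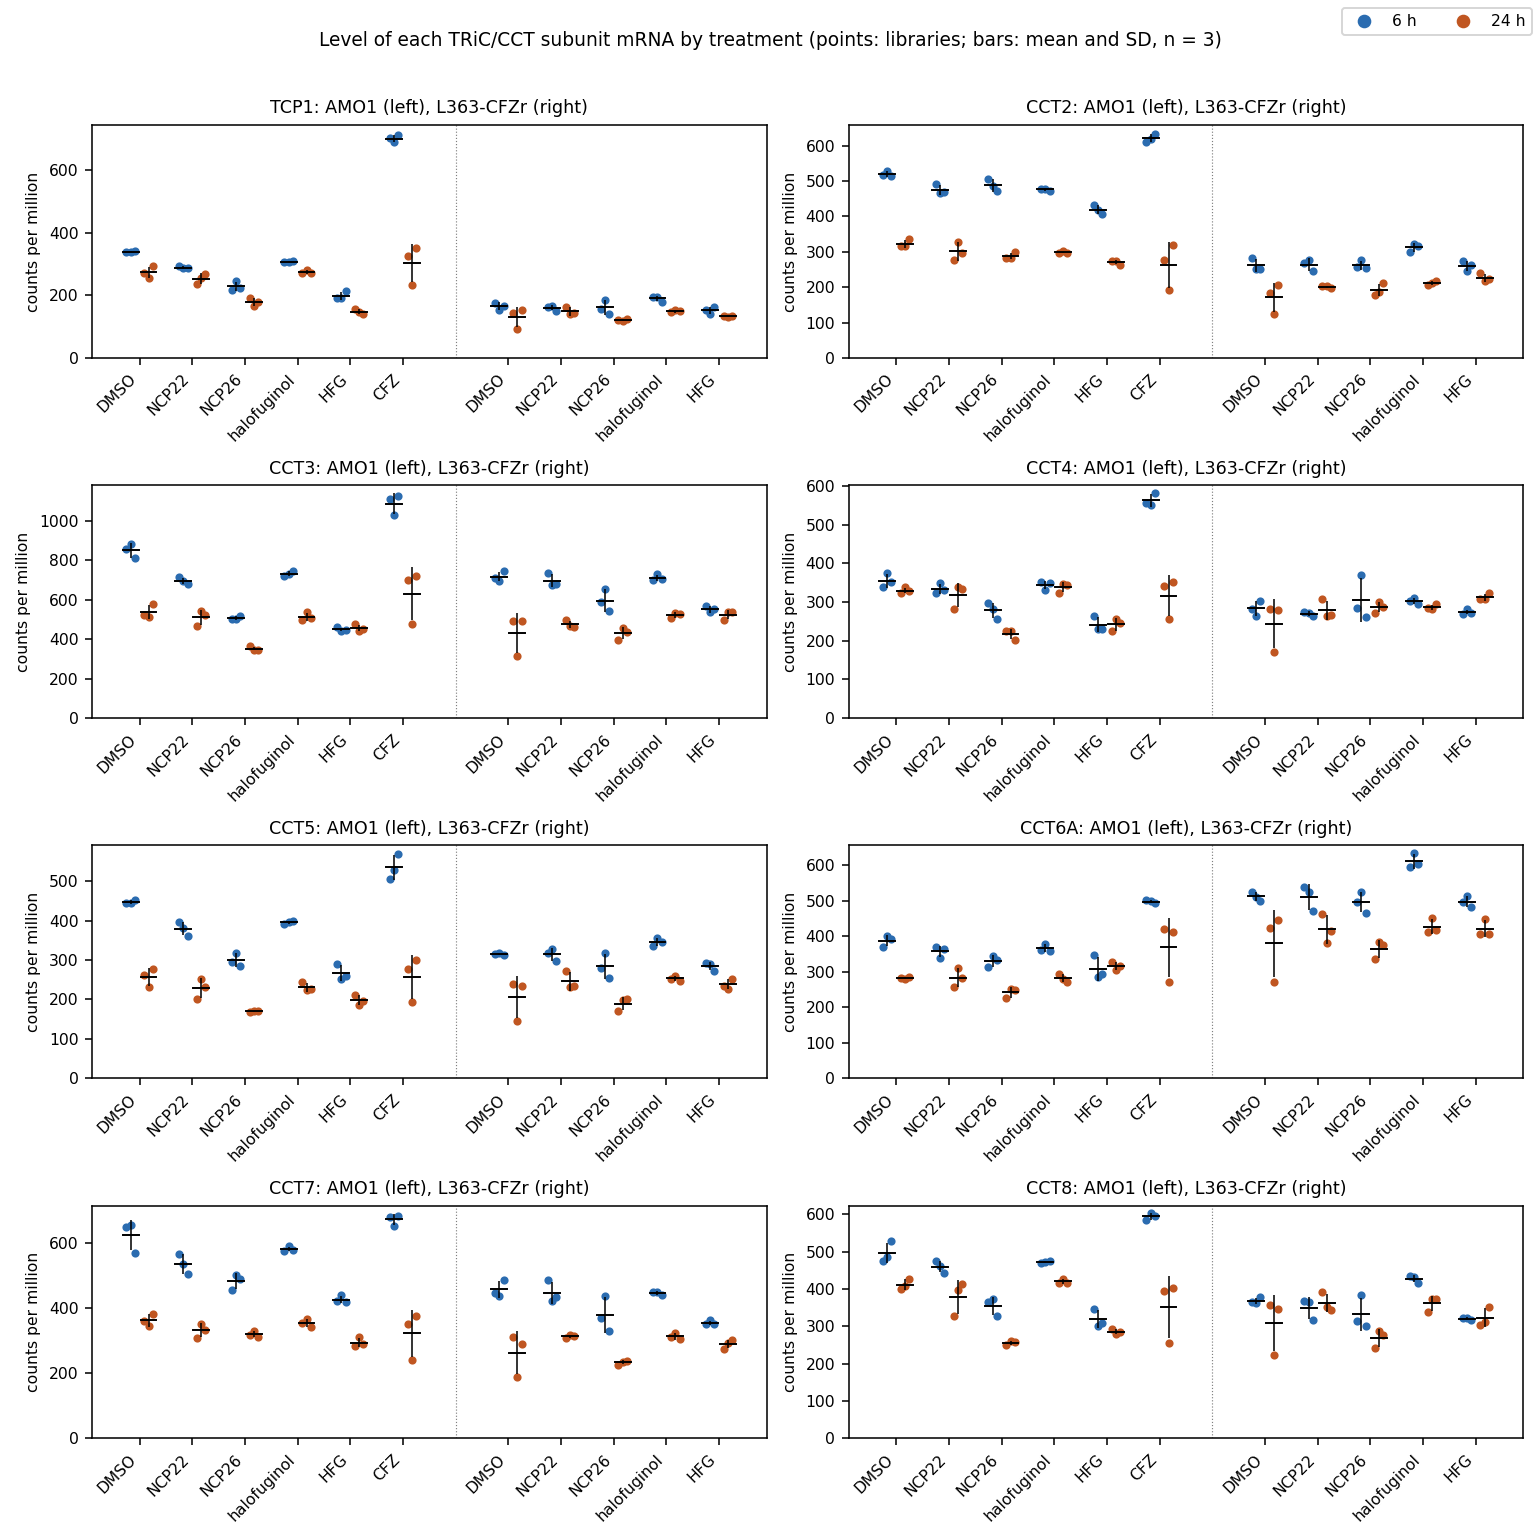
CPM of each of the 8 subunit mRNAs in all 66 libraries (points), with the mean and SD of each group of 3, by treatment on the horizontal axis, AMO1 to the left of the dotted line and L363-CFZr to the right. CFZ at 6 h has the highest AMO1 mean of every subunit, and the low orange points of CFZ in AMO1 and of DMSO in L363-CFZr are the libraries that stood apart.

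Over the 22 groups the summed level ran from 5274 ± 113 CPM in AMO1 with CFZ for 6 h to 2025 ± 9.19 CPM in AMO1 with NCP26 for 24 h, a ratio of 2.60. After CFZ came AMO1 with DMSO (4022 ± 81.6), halofuginol (3678 ± 19) and NCP22 (3527 ± 94.4), all of 6 h, and then L363-CFZr with halofuginol for 6 h (3348 ± 71.3). These 5 groups did not overlap one another or the next. From the sixth place, L363-CFZr with DMSO for 6 h (3081 ± 77.1), to the 18th, L363-CFZr with NCP22 for 24 h (2443 ± 140), each group overlapped its neighbour in the order. The lowest 4 were AMO1 with HFG for 24 h (2211 ± 31.2), L363-CFZr with DMSO (2136 ± 523) and with NCP26 (2086 ± 125), both of 24 h, and AMO1 with NCP26 for 24 h, and these neighbours overlapped too. Without its library that stood apart, L363-CFZr with DMSO for 24 h had a mean of 2438 CPM, overlapped L363-CFZr with NCP22 and was above AMO1 with HFG for 24 h. Without its own such library, AMO1 with CFZ for 24 h moved from 2812 CPM and the 10th place to 3160 CPM and the sixth. TCP1 had the widest range of the members, from 701 ± 12 CPM in AMO1 with CFZ for 6 h to 121 ± 3.26 CPM in L363-CFZr with NCP26 for 24 h, a ratio of 5.79. CCT8 had the narrowest, with a ratio of 2.32. In AMO1 each of the 8 was highest with CFZ at 6 h. In L363-CFZr, which was not given CFZ, 5 members had their highest mean with halofuginol at 6 h, CCT3 and CCT7 with DMSO at 6 h and CCT4 with HFG at 24 h.

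CFZ for 6 h raised 7 of the 8 subunit mRNAs in AMO1, TCP1 and CCT4 by the largest factors. TCP1, the subunit that gave the complex its name, was at 338, 339 and 342 CPM with DMSO and at 702, 688 and 712 CPM with CFZ. That is a 2.06-fold rise (log2 1.04, SE 0.06, 95% confidence interval 0.92 to 1.16, adjusted p = 8.7e-12). CCT4 was at 338, 375 and 352 CPM with DMSO and at 557, 551 and 582 CPM with CFZ, a 1.58-fold rise (log2 0.66, SE 0.06, adjusted p = 5.6e-08). In both genes every CFZ library was above every DMSO library by a wide margin. CCT6A (log2 0.35), CCT3 (0.35), CCT5 (0.26), CCT8 (0.26) and CCT2 (0.25) rose by 1.19-fold to 1.28-fold, also without overlap, each with SE 0.06. CCT7 was at 651, 656 and 572 CPM against 683, 655 and 686 CPM, overlapping, with a log2 fold change of 0.10 (SE 0.06, interval -0.03 to 0.23, adjusted p = 0.236). In this comparison 14.1% of 10470 genes were called higher. The count was 7 with each library left out in turn, with DESeq2, its size factors, no filter, a replicate block and a GC offset. It was 5 in both fits of all groups, with and without a term for the set, where 21% and 20.6% of genes were called in either direction.

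The rise was unequal, so the make-up of the subunit mRNA moved. TCP1 took 8.44% ± 0.188 of the summed subunit CPM with DMSO and 13.3% ± 0.0863 with CFZ at 6 h. CCT4 went from 8.82% ± 0.332 to 10.7% ± 0.0919, and CCT7 from 15.6% ± 0.988 to 12.8% ± 0.180. With CFZ the CPM of TCP1 exceeded that of CCT7, although TCP1 was the lowest and CCT7 the second highest of the 8 with DMSO. These shares are of counts, not of molecules, since the transcripts differ in length.

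**Figure D3:**
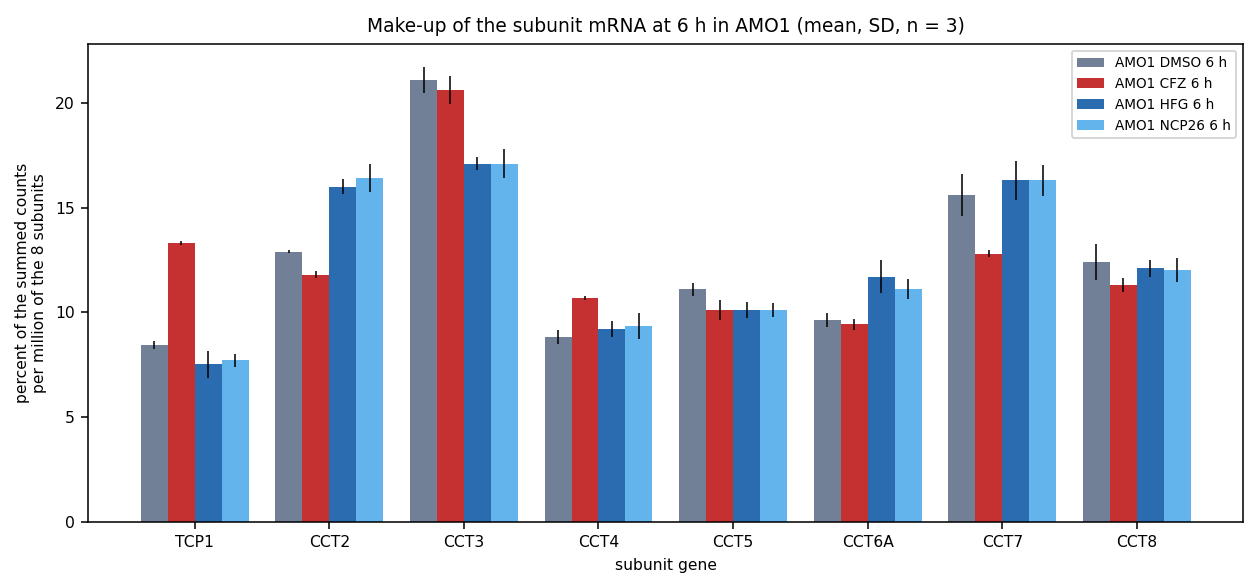
Percent of the summed CPM of the 8 subunits taken by each subunit in AMO1 at 6 h (bars: mean, lines: SD, n = 3) with DMSO, CFZ, HFG and NCP26. TCP1 takes 13.3% with CFZ against 8.44% with DMSO, and CCT3 takes a smaller share with HFG and NCP26 than with DMSO.

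At 24 h of CFZ no subunit passed the test in edgeR, where 27% of 10674 genes were called in either direction, or in DESeq2. At an unadjusted p under 0.05 were 1 of 8 members and 4262 of all genes. CCT6A was at 421, 271 and 412 CPM against 283, 280 and 285 CPM with DMSO (log2 0.40, SE 0.16, adjusted p = 0.105), the low value being that of the library that stood apart. TCP1 was at 324, 234 and 352 CPM against 272, 255 and 292 CPM (log2 0.17, SE 0.15). CCT3 was at 0.25 (SE 0.16), CCT5 at 0.02 (SE 0.16), CCT4 at -0.04 (SE 0.13), CCT7 at -0.16 (SE 0.16), CCT8 at -0.21 (SE 0.17) and CCT2 at -0.28 (SE 0.17). Every one of the 8 pairs of groups overlapped. Without replicate 2, 4 members were called higher, at a background of 23.4%: CCT6A (log2 0.57, SE 0.05, adjusted p = 2e-08), CCT3 (0.40, SE 0.06), TCP1 (0.31, SE 0.06) and CCT5 (0.18, SE 0.07). CCT4 was then at 0.08 (SE 0.05, adjusted p = 0.231). The response of TCP1 was smaller at 24 h than at 6 h by a log2 difference of -0.89 (SE 0.17, adjusted p = 0.00259), and that of CCT4 by -0.72 (SE 0.15, adjusted p = 0.00517), in a test of the difference itself. These 2 were called lower where 11.6% of 10988 genes were, and both were still called without replicate 2 (-0.74 and -0.59), together with CCT2 (-0.37) and CCT8 (-0.30), at a background of 17.7%.

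NCP26 and HFG for 6 h lowered the subunits in AMO1, CCT3 most. CCT3 was at 859, 884 and 809 CPM with DMSO, at 503, 501 and 517 CPM with NCP26 and at 460, 441 and 446 CPM with HFG. Its log2 fold change was -0.74 (SE 0.10, adjusted p = 0.0001) for NCP26 and -0.89 (SE 0.06, adjusted p = 1.2e-08) for HFG, with all treated libraries far below the controls. CCT5, the subunit in which a rare inherited sensory neuropathy has been described, was at 444, 445 and 452 CPM with DMSO, at 294, 319 and 286 CPM with NCP26 (log2 -0.57, SE 0.10) and at 291, 251 and 259 CPM with HFG (log2 -0.71, SE 0.07). TCP1 was at 218, 245 and 224 CPM with NCP26 (log2 -0.56, SE 0.10) and at 190, 190 and 212 CPM with HFG (log2 -0.74, SE 0.07), the opposite side of the DMSO level from CFZ. CCT8 (-0.47 for NCP26 and -0.60 for HFG), CCT7 (-0.36 and -0.51) and CCT4 (-0.34 and -0.52) also fell with both.

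CCT2 and CCT6A moved least with either compound. CCT2, in which mutations cause a form of Leber congenital amaurosis, was at 507, 485 and 472 CPM with NCP26 against 518, 528 and 514 CPM with DMSO, below but close (log2 -0.08, SE 0.09, interval -0.29 to 0.12, adjusted p = 0.509). With HFG it was at 432, 418 and 408 CPM and fell by 0.27 on the log2 scale (SE 0.06, adjusted p = 0.00148). CCT6A was at -0.22 for NCP26 (SE 0.10, adjusted p = 0.0822) and fell by 0.30 for HFG (SE 0.08, adjusted p = 0.00504). In all, 6 members fell with NCP26, where 19.2% of 10666 genes did, and 8 fell with HFG, where 26.6% of 10737 did. The median over the members was -0.42 for NCP26 and -0.56 for HFG, beside medians over all genes of -0.011 and 0.013. Both comparisons use the same DMSO libraries. Compared directly at 6 h, all 8 members were higher with NCP26 than with HFG by 0.10 to 0.21 on the log2 scale. None passed the test in edgeR, which called only 0.26% of 10749 genes, or in DESeq2, which called 176. Under an unadjusted p of 0.05 were 2 members and 1416 of all genes. The intervals of these differences ran from -0.12 to 0.41.

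**Figure D4:**
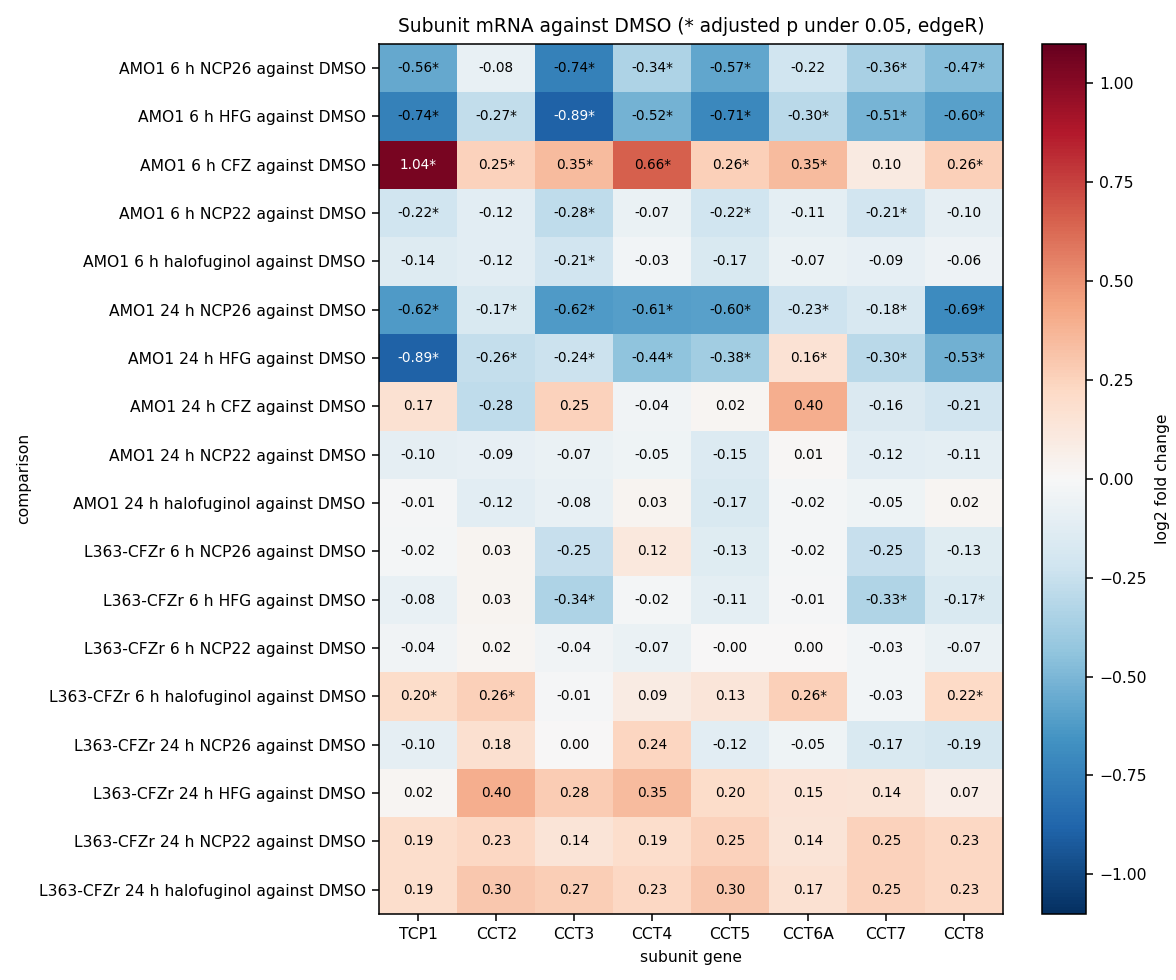
Log2 fold change of each subunit mRNA (columns) against DMSO of the same line and time in the 18 treatment comparisons (rows), with an asterisk where the edgeR adjusted p was under 0.05. AMO1 with CFZ at 6 h is the row of positive values up to 1.04 in TCP1, and the AMO1 rows of NCP26 and HFG hold the negative values down to -0.89. Rows of the same line and time share their 3 DMSO libraries.

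At 24 h in AMO1, NCP26 lowered all 8 subunits and HFG lowered 7, while CCT6A rose with HFG. CCT8 fell most with NCP26, from 399, 408 and 427 CPM with DMSO to 251, 261 and 257 CPM (log2 -0.69, SE 0.05, adjusted p = 9.3e-14). TCP1 fell most with HFG, from 272, 255 and 292 CPM to 156, 147 and 141 CPM (log2 -0.89, SE 0.07, adjusted p = 2.5e-09). Neither pair of groups came near overlapping. With NCP26 the other members fell by 0.62 (TCP1 and CCT3), 0.61 (CCT4), 0.60 (CCT5), 0.23 (CCT6A), 0.18 (CCT7) and 0.17 (CCT2). With HFG they fell by 0.53 (CCT8), 0.44 (CCT4), 0.38 (CCT5), 0.30 (CCT7), 0.26 (CCT2) and 0.24 (CCT3). CCT6A, the subunit that has a testis-expressed paralogue CCT6B, was at 327, 304 and 317 CPM with HFG against 283, 280 and 285 CPM with DMSO, and at 225, 252 and 248 CPM with NCP26. It was thus above the controls with HFG (log2 0.16, SE 0.05, adjusted p = 0.0146), a call that was lost with an offset for GC content (0.10, adjusted p = 0.121) and in a fit of all groups (0.16, adjusted p = 0.185), and below them with NCP26 (log2 -0.23, SE 0.05, adjusted p = 0.00031). In these comparisons 30.9% of 10787 genes fell with NCP26, and 30.5% of 10723 fell and 28.5% rose with HFG.

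The treated libraries of 24 h were of set 2 and the DMSO libraries of set 1, so no value within a set exists for these comparisons. A term for the set can be estimated in AMO1 only from CFZ at 24 h. Its replicate 1 is in set 1 and its replicates 2 and 3 are in set 2. That replicate 2 is the library that stood apart. With this term TCP1 (-0.49, SE 0.16, adjusted p = 0.0231) and CCT4 (-0.46, SE 0.16, adjusted p = 0.0318) were still called with NCP26. CCT3, CCT8 and CCT5 were then at -0.41 to -0.45 with adjusted p of 0.052 to 0.0658, and CCT6A changed sign to 0.05. The background was 15.1%. With HFG the same fit called TCP1 (-0.76) lower and CCT6A (0.45) higher, at backgrounds of 17.9% and 13.5%, and CCT3 was at -0.03. NCP26 and HFG at 24 h are of 1 set and can be compared within it. There TCP1 was higher with NCP26 (log2 0.26, SE 0.07), at a background of 22.6%. CCT6A (-0.40, SE 0.06), CCT3 (-0.38, SE 0.05), CCT5 (-0.23), CCT4 (-0.18) and CCT8 (-0.17) were lower with NCP26, 5 members at a background of 22.4%. Against CFZ, NCP26 left all 8 subunits lower at 6 h (log2 -0.34 in CCT2 to -1.60 in TCP1, at a background of 21.8%) and 5 lower at 24 h (CCT3 -0.85, TCP1 -0.78, CCT6A -0.62, CCT5 -0.61 and CCT4 -0.56, at a background of 22.5%). Without CFZ replicate 2, 7 were lower at 24 h, at a background of 30.8%, and CCT2 was at -0.06.

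Between 6 h and 24 h the response to NCP26 did not differ by the test for any subunit in edgeR or DESeq2. The differences lay between -0.27 (CCT4) and 0.17 (CCT7). In edgeR 17.5% of 11059 genes were called, and 2 members and 3432 of all genes were under an unadjusted p of 0.05. The response to HFG was weaker at 24 h for CCT3, from -0.89 to -0.24, a log2 difference of 0.68 (SE 0.08, adjusted p = 2.1e-06). It also moved upward for CCT6A by 0.49 (SE 0.10, adjusted p = 0.00046), CCT5 by 0.36 (SE 0.10, adjusted p = 0.0096) and CCT7 by 0.25 (SE 0.09, adjusted p = 0.0338), 4 members at a background of 18.5%. TCP1, CCT2, CCT4 and CCT8 had differences of -0.12 to 0.11 with adjusted p of 0.357 or more. With the term for the set, CCT3 (0.90) and CCT6A (0.79) were still called, at a background of 11.1%.

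In the CFZ-resistant line 0 subunits passed the test with NCP26 at 6 h and 3 with HFG. With NCP26 for 6 h no subunit passed the test in edgeR, where 18.8% of 10701 genes were called, or in DESeq2. Under an unadjusted p of 0.05 were 2 of 8 members and 3609 of all genes. TCP1 was at 176, 152 and 167 CPM with DMSO and at 156, 186 and 141 CPM with NCP26, and CCT3 at 711, 696 and 744 CPM against 586, 656 and 543 CPM. The TCP1 groups overlapped (log2 -0.02, SE 0.12, interval -0.28 to 0.24), whereas the CCT3 groups did not (log2 -0.25, SE 0.10, interval -0.47 to -0.02, adjusted p = 0.114). CCT7 was at -0.25 (SE 0.11) without overlap, CCT5 and CCT8 at -0.13, CCT6A at -0.02, CCT2 at 0.03 and CCT4 at 0.12, all of these 5 with overlap. NCP26 replicate 2 was the highest of its group for all 8 subunits. Without it 4 members were called lower, at a background of 18.4%: CCT7 (-0.36, SE 0.08), CCT3 (-0.32, SE 0.07), CCT8 (-0.23, SE 0.07) and CCT5 (-0.21, SE 0.07). Each of the other 5 leave-outs gave 0. Replicate 2 was singled out by these same subunit values, so its removal favours lower calls and is no separate test. Its mean correlation with its mates was 0.98, within the 0.969 to 0.992 of groups without a library that stood apart. With HFG for 6 h CCT3 fell from its levels with DMSO to 570, 535 and 552 CPM (log2 -0.34, SE 0.05, adjusted p = 8.3e-06). CCT7 fell by 0.33 (SE 0.06, adjusted p = 3.2e-05) and CCT8 by 0.17 (SE 0.06, adjusted p = 0.0134). These were 3 members at a background of 27.5%. HFG and DMSO at 6 h were of different sets, linked in this line only by NCP22 at 6 h, whose replicate 3 is in set 3. With a term for the set the SEs were wider and none of the 3 was called (CCT3 -0.30, SE 0.20, CCT7 -0.28, SE 0.22, and CCT8 0.03, SE 0.22). CCT3 and CCT7 are also the members with the most G and C in their longest transcripts (51.3% each, against 42.3% to 45.9% in the rest). With an offset for GC content, 7 members were called lower, at -0.19 (CCT3 and CCT7) to -0.34 (CCT8), at a background of 20.3%, and CCT2 was at -0.01.

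With halofuginol for 6 h 4 subunits rose in the resistant line, at a background of 13.6%: CCT2 (log2 0.26, SE 0.06), CCT6A (0.26, SE 0.05), CCT8 (0.22, SE 0.05) and TCP1 (0.20, SE 0.06). CCT6A was at 594, 635 and 604 CPM against 525, 511 and 499 CPM with DMSO. These libraries were of set 3 and the controls of set 2. With a term for the set, which rests on the same NCP22 group, these 4 were at 0.34 to 0.45 with SEs of 0.20 to 0.22, and none was called. With the offset for GC content CCT2 alone was called (0.23, at a background of 1.2%). With NCP22 for 6 h no subunit passed in edgeR or DESeq2, none was under an unadjusted p of 0.05, and the values lay between -0.07 and 0.02. At that comparison 0% of 10235 genes were called by edgeR, with 666 under an unadjusted p of 0.05 and 1 called by DESeq2.

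At 24 h no subunit passed against DMSO in L363-CFZr with NCP26, HFG, NCP22 or halofuginol, in edgeR or in DESeq2, and none was under an unadjusted p of 0.05. Among all genes 7.09%, 1.17%, 0% and 0% were called. Under an unadjusted p of 0.05 were 2443, 1735, 213 and 410 genes, and DESeq2 called 923, 274, 0 and 0. The intervals reached from -0.66 to 0.84, with the DMSO library that stood apart among the controls. Without it NCP26 lowered 5 subunits, at a background of 15.5%: CCT8 (log2 -0.38, SE 0.08, adjusted p = 0.00449), CCT7 (-0.36, SE 0.07), CCT5 (-0.31, SE 0.09), TCP1 (-0.29, SE 0.08) and CCT6A (-0.24, SE 0.07). HFG then raised CCT2 (0.22, SE 0.06) and CCT4 (0.16, SE 0.05), at a background of 9.34%. For NCP22 and halofuginol no member was called without it either.

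The responses of the 2 lines were compared directly. At 6 h the fitted NCP26 response was higher in L363-CFZr for all 8 members, by 0.09 (CCT2 and CCT7) to 0.52 (TCP1, SE 0.15, adjusted p = 0.075). None passed in edgeR, which called 2.71% of 11044 genes. Under an unadjusted p of 0.05 were 5 members and 1800 of all genes. DESeq2 called 3 members and 362 of all genes. At 24 h CCT4 differed for NCP26 (log2 0.82, SE 0.22, adjusted p = 0.0473), 1 member at a background of 2.97%, and was called without the DMSO library that stood apart too (0.62, SE 0.08), as were CCT3 (0.40), TCP1 (0.30) and CCT8 (0.28), at a background of 10.8%. The call of CCT4 was lost with a term for the set (0.66, adjusted p = 0.0849) and with a replicate block (0.84, adjusted p = 0.0769). With 1 library left out at a time, no subunit was called in 9 of the leave-outs. For HFG at 24 h TCP1 (0.90, SE 0.20, adjusted p = 0.00916), CCT4 (0.79, SE 0.20, adjusted p = 0.0188) and CCT2 (0.65, SE 0.19, adjusted p = 0.0366) differed, 3 members at a background of 8.06%, of which TCP1 (0.75) was called with the term for the set. Without that library all 8 differed, 7 with a higher response in L363-CFZr (0.25 to 0.73, at a background of 16.9%) and CCT6A with a lower one (-0.20, SE 0.07, at a background of 16.4%). The set of the AMO1 controls at 24 h enters these differences.

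The compounds were then compared in pairs at the same dose of 1 µM, the same time and line, in 8 tests across all genes. NCP26 differs from NCP22 by a piperidinyl group in place of a cyclohexyl group. In AMO1 at 6 h the subunits were lower with NCP26 than with NCP22 in CCT3 (log2 -0.43, SE 0.08, adjusted p = 0.00339), CCT8 (-0.35, SE 0.09), CCT5 (-0.32, SE 0.09) and TCP1 (-0.30, SE 0.09), 4 members at a background of 12.2%. For CCT2 (interval -0.12 to 0.25), CCT6A (-0.28 to 0.10) and CCT7 (-0.32 to 0.07) the interval held 0, and for CCT4 the adjusted p was 0.0634. At 24 h 6 members were lower, at a background of 25.7%: CCT8 (-0.56, SE 0.08), CCT4 (-0.54), CCT3 (-0.53), TCP1 (-0.49), CCT5 (-0.43) and CCT6A (-0.22). Both groups were of 1 set. CCT8 was at 328, 398 and 413 CPM with NCP22 and at 251, 261 and 257 CPM with NCP26. In L363-CFZr at 6 h none differed in edgeR or DESeq2 and none was under an unadjusted p of 0.05, with intervals from -0.49 to 0.45. There 20.4% of 10694 genes were called and 3721 were under that unadjusted p. At 24 h CCT8 (-0.43, SE 0.09, adjusted p = 0.00188), CCT7 (-0.42, SE 0.07, adjusted p = 0.00057), CCT5 (-0.37, SE 0.09) and TCP1 (-0.29, SE 0.09) were lower with NCP26, 4 members at a background of 17.9%. In AMO1 at 24 h CCT7 stood at -0.04 (SE 0.07, interval -0.18 to 0.10), and whether the lines differ in it was not tested.

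HFG stood below halofuginol, its analogue, for all 8 members in AMO1 at 6 h, at a background of 26.1%. The differences ran from -0.16 in CCT2 (SE 0.05, adjusted p = 0.00911) to -0.68 in CCT3 (SE 0.05, adjusted p = 2e-09). CCT3 was at 721, 732 and 745 CPM with halofuginol and at 460, 441 and 446 CPM with HFG. At 24 h 6 members were lower, at a background of 28.7%, TCP1 most (-0.88, SE 0.07, adjusted p = 6.4e-09), and CCT6A was higher (0.19, SE 0.06, adjusted p = 0.0191), at a background of 27.9%. The call of CCT6A was lost with an offset for GC content (0.12, adjusted p = 0.103) and in the fits of all groups without and with a term for the set (0.18 each, adjusted p = 0.135 and 0.113). CCT2 had an interval of -0.26 to 0.00. In L363-CFZr at 6 h all 8 were lower with HFG, at a background of 24.2%, from -0.11 in CCT4 (SE 0.04, adjusted p = 0.026) to -0.39 in CCT8 (SE 0.04, adjusted p = 1.8e-09), both groups being of 1 set. At 24 h none passed in edgeR or DESeq2, with intervals from -0.31 to 0.24, where 21.9% of 10408 genes were called. Under an unadjusted p of 0.05 were 3 members and 3513 of all genes.

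**Figure D5:**
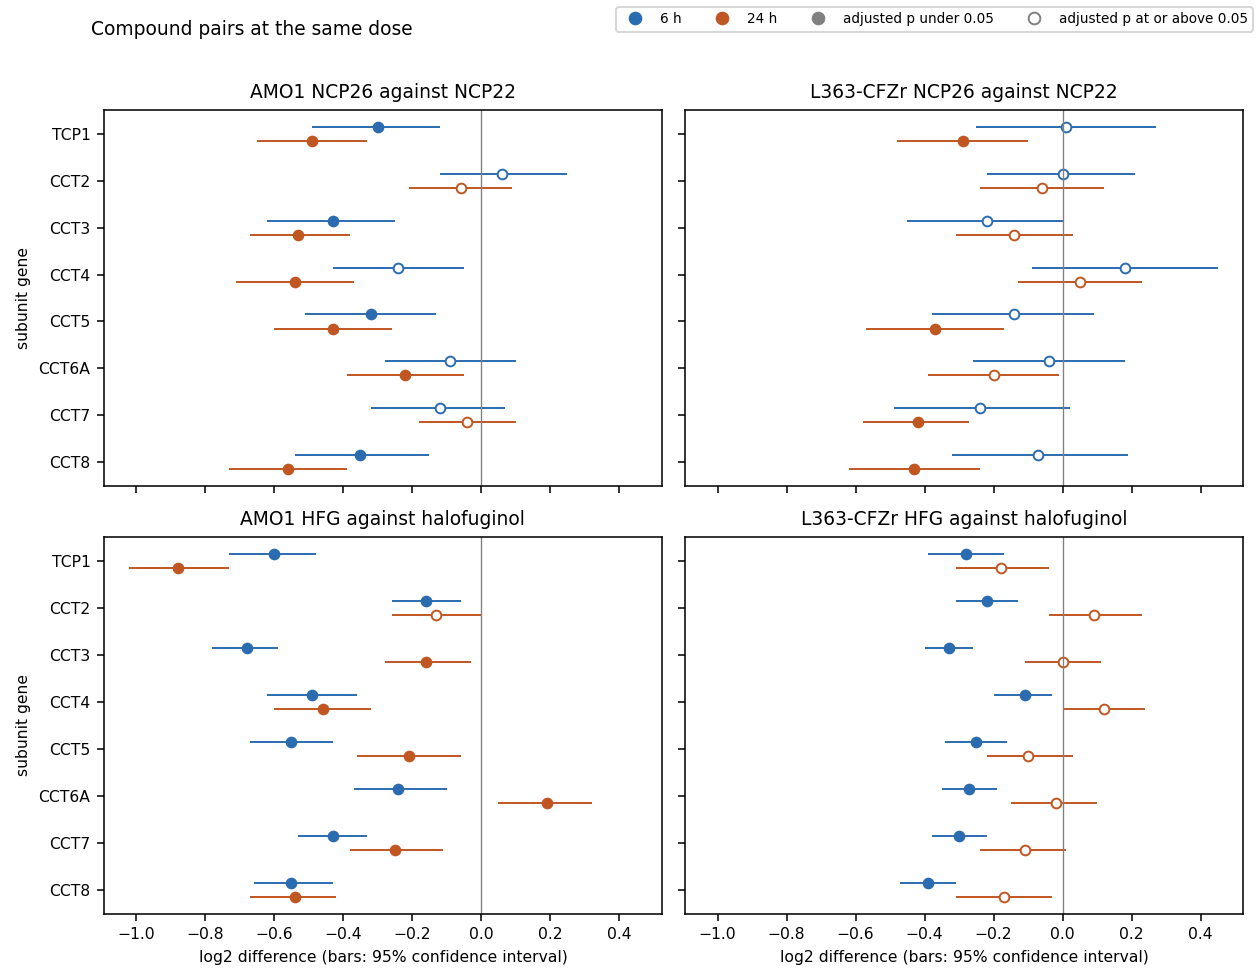
Log2 difference of each subunit mRNA between the compounds of a pair (points, with 95% confidence intervals) at 6 h and 24 h, NCP26 against NCP22 above and HFG against halofuginol below, AMO1 on the left and L363-CFZr on the right. Filled points had an adjusted p under 0.05. In AMO1 most points lie left of 0, and CCT6A at 24 h of HFG is the filled point on the right.

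Against DMSO, NCP22 lowered 4 subunits and halofuginol 1 in AMO1 at 6 h. NCP22 lowered CCT3 (-0.28, SE 0.06), TCP1 (-0.22), CCT5 (-0.22) and CCT7 (-0.21), at a background of 6.08%. Halofuginol lowered CCT3 alone (-0.21, SE 0.05, adjusted p = 0.0306), at a background of 1.02%. With 1 library left out at a time, 1 subunit was called for NCP22 in 4 of the leave-outs and 0 for halofuginol in 5. At 24 h neither changed any member in edgeR or DESeq2. The libraries of both compounds at 24 h were of set 2 and the controls of set 1. With NCP22 0% of 10781 genes were called, with 638 under an unadjusted p of 0.05 and 2 called by DESeq2. With halofuginol 0.183% of 10943 were called, with 1129 under that unadjusted p and 99 called by DESeq2. Of the members 0 and 2 were under an unadjusted p of 0.05, and the values lay between -0.17 and 0.03.

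Genes that work with TRiC were read beside the subunits from lists given in the methods, in the comparisons of NCP26, HFG and CFZ with DMSO, in which medians over all genes lay between -0.016 and 0.015. The shares of all genes that rose in AMO1 were 18.1% with NCP26 and 27.7% with HFG at 6 h and 29.8% with NCP26 at 24 h, beside the shares that fell given above. With CFZ 12.8% fell at 6 h, and 13.1% rose and 14% fell at 24 h. In L363-CFZr at 6 h 9.81% rose and 8.99% fell with NCP26, and 26.9% rose with HFG. With NCP26 and HFG in AMO1 at 24 h, and with HFG in L363-CFZr at 6 h, treated and DMSO libraries were of different sets. So were CFZ replicates 2 and 3 of 24 h and their controls. No value of the listed genes with a term for the set is given here, so set and treatment cannot be told apart in these comparisons. Prefoldin, the hexamer that carries unfolded actin and tubulin to TRiC, did not move as 1 group. At 6 h in AMO1, 2 of 6 prefoldin genes fell with NCP26 (PFDN6 by 0.82 and PFDN5 by 0.62) and 3 of 6 with HFG, and none rose. At 24 h 4 of 6 rose and 1 fell with NCP26, VBP1 (0.71, SE 0.08) and PFDN2 (0.68, SE 0.08) most, and 3 rose and 1 fell with HFG (VBP1 0.58, PFDN5 -0.54). In those comparisons of 24 h all 8 subunits fell with NCP26, and 7 fell and CCT6A rose with HFG. With the term for the set only 2 were called lower with NCP26, and 1 lower and 1 higher with HFG. With CFZ at 6 h 3 of 6 rose, PFDN4 most (0.76, SE 0.11). TXNDC9, a phosducin-like protein that binds TRiC, rose in AMO1 with NCP26 (0.69, SE 0.15), HFG (0.48, SE 0.13) and CFZ (0.51, SE 0.14) at 6 h and in L363-CFZr with NCP26 (0.56, SE 0.13) and HFG (0.73, SE 0.11) at 6 h. In each of these it was the only 1 of the 3 phosducin-like genes called. At 24 h in AMO1 TXNDC9 rose with NCP26 (0.71, SE 0.13) and HFG (0.71, SE 0.14), and PDCL fell with NCP26 (-0.56, SE 0.17). Of the tubulin folding cofactors, which take tubulin after TRiC, TBCD fell with NCP26 (-0.39, SE 0.12) and HFG (-0.49, SE 0.10) at 6 h in AMO1 and with both in L363-CFZr (-0.44 and -0.68), while TBCA rose with CFZ (0.57, SE 0.08). Of 4 cofactors tested, 1 fell with NCP26 and 3 with HFG at 6 h in each line. At 24 h in AMO1 TBCD fell (-0.58, SE 0.10) and TBCA rose (0.16, SE 0.06) with NCP26. With HFG TBCB then rose (0.27, SE 0.11) and none fell.

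Several clients of TRiC also fell with the synthetase inhibitors, and the limit of set given for the lists above holds here too. Of 13 client genes 7 fell and 1 rose with NCP26 at 6 h in AMO1 (median -0.39), and 7 fell and 2 rose with HFG (median -0.72). TUBB4B (-1.55, SE 0.10) and TUBB (-1.40, SE 0.10), both beta tubulins, changed most with NCP26, and TUBA1B and TUBB (-1.66 each, SE 0.06) with HFG. At 24 h 8 of 13 fell and 4 rose with NCP26 (median -1.27), with TUBA1B (-2.13, SE 0.05) and ACTG1, a cytoplasmic actin (-1.70, SE 0.04), the most changed, and 7 fell and 0 rose with HFG (median -0.63). In the resistant line at 6 h 7 of 13 fell with NCP26 and 8 of 13 with HFG (1 rose), with TUBB4B at -1.20 (SE 0.10) and -1.28 (SE 0.07), where 0 and 3 subunits fell. With CFZ at 6 h 2 clients rose and 4 fell, TUBA1C (0.83, SE 0.07) and CDC20 (-0.78, SE 0.14) most.

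The heat shock genes of the cytosol rose with CFZ, and the limit of set given for the lists above holds here too. All 16 rose with CFZ at 6 h in AMO1, with a median of 2.25 on the log2 scale beside 0.30 over the subunits. HSPA1B, an inducible HSP70 gene with a near-identical copy in HSPA1A, stood at 6.29 (SE 0.07) and DNAJB1, an HSP40 gene, at 5.33 (SE 0.06). At 24 h 15 of 16 rose (median 1.34), and 16 did without CFZ replicate 2 (median 1.40). With NCP26 at 6 h 12 of 16 fell and none rose (median -0.75), HSPA8, the constitutive HSP70 gene, most (-1.95, SE 0.10), and with HFG 11 fell and 1 rose (median -0.56, HSPA8 -1.98, SE 0.06). At 24 h in AMO1 10 fell and 3 rose with NCP26 (median -0.59), and 8 fell and 4 rose with HFG (median -0.21). In L363-CFZr at 6 h 11 fell with NCP26 and 13 fell and 3 rose with HFG, HSPA8 again most (-1.41, SE 0.10, and -1.38, SE 0.05). There at 24 h 3 fell with NCP26, where 4.38% of all genes did, and 0 with HFG, where 0.573% did (median -0.07). Without DMSO replicate 2, 11 fell with NCP26, where 15.5% of all genes did. With HFG 8 of 16 then fell and 1 rose (median -0.19), where 9.34% of all genes rose and the share that fell is not given here. HSPD1 and HSPE1, which form the chaperonin of mitochondria, rose with CFZ at 6 h by 2.45 (SE 0.05) and 1.92 (SE 0.07), and fell in AMO1 with NCP26 at 6 h (-0.60 and -0.95) and 24 h (-0.67 and -1.02) and with HFG (-0.71 and -1.21 at 6 h). Among 5 further genes related to CCT by sequence, 4 were tested at 6 h. CCT6B rose at 24 h in AMO1 with NCP26 (1.60, SE 0.28) and HFG (1.42, SE 0.28). In L363-CFZr at 24 h CCT6B rose with NCP26 (1.30, SE 0.28) and HFG (1.29, SE 0.22), where 2.71% and 0.592% of all genes rose. Without DMSO replicate 2 these were 1.22 (SE 0.28) and 1.21 (SE 0.25). BBS12 and BBS10, chaperonin-like proteins of Bardet-Biedl syndrome, rose with NCP26 at 6 h in AMO1 (1.16, SE 0.30, and 0.52, SE 0.18). With HFG BBS12 (1.23, SE 0.29) and MKKS (0.48, SE 0.09) rose there. CCT6A, from which reads of CCT6B would have to be separated, shares 0.469% of its 31-base words with other genes of the table.

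The subunits varied together over the groups, CCT4 in L363-CFZr least. After subtraction of the mean of each line from the 22 group means of log2 CPM, the 28 pairs of members correlated at Pearson's r of 0.54 (CCT4 with CCT7) to 0.95 (CCT5 with CCT7), with a median of 0.83. Within AMO1 the closest pair over 12 groups was TCP1 with CCT4 (0.97) and the loosest CCT2 with CCT4 (0.57). Within L363-CFZr, over 10 groups, CCT5 with CCT7 was closest (0.98) and CCT4 with CCT7 loosest (0.23). There CCT4 correlated with the other members at no more than 0.54 (CCT2), and the pairs without CCT4 at 0.66 (CCT2 with CCT8) or more. Without the 2 libraries that stood apart, a setting chosen after the data had been seen, the median of the 28 pairs was 0.81. The loosest pair over both lines was then CCT2 with CCT4 (0.51), the closest in AMO1 CCT2 with CCT7 (0.97), and CCT4 with CCT7 in L363-CFZr was at -0.13. Time and the set of library numbers enter these group means, so the correlations are descriptions. Correlations over pairs of other genes are not given here. Of 11779 other genes, those whose pattern was most like the mean of the 8 were RUVBL2 (0.955), NOP56 (0.941), BST2 (0.941), STRAP (0.941) and KARS1 (0.936). RUVBL2 is an ATPase of several chaperone and chromatin complexes, NOP56 a core protein of box C/D small nucleolar particles, BST2 an interferon-induced membrane protein, STRAP a WD-repeat protein and KARS1 the lysyl-tRNA synthetase. Without the subtraction RUVBL2 was first (0.948) and BST2 fell to rank 202. Without the libraries that stood apart TXN (0.937) took the place of KARS1 among the first 5. The most opposite patterns were those of DMXL2 (-0.950), GSK3B (-0.943), ZC3H6 (-0.940), BBS2 (-0.938) and DZIP3 (-0.936), and without those libraries RASA1 (-0.951) took the place of BBS2.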

How the data were processed

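PolyA RNA of 66 libraries was sequenced from directional libraries. The authors pseudo-aligned the reads with kallisto (31-base words), which estimates transcript abundance, and deposited whole-number counts per gene. The study's methods name GRCh38, the submitters' processing notes list hg19, and no source used here gives the version or annotation. The file holds no coordinates, and none is taken from hg19. Counts summed to 1666325 to 6596543 per library. Of 20167 identifiers 95.7% were found in GENCODE release 44, from which positions, lengths and GC content come. Subunits shared at most 4.33% of their 31-base words with other genes of the table, but up to 16.1% (CCT6A) with any GENCODE gene, pseudogenes included, so reads may be divided where those were indexed.

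Groups were taken from the sample titles. Genes were kept by filterByExpr (minimum count 10, minimum total 15) and fitted with edgeR 4.0.16 (limma 3.58.1, R 4.3.3) by TMM, glmQLFit and glmQLFTest, using only the libraries compared, with Benjamini-Hochberg adjustment over all genes tested. Confidence intervals used the moderated degrees of freedom. The procedure was tested on simulated counts. Alternatives were DESeq2 1.42.0 (the study's tool), its size factors, no filter, a replicate block, a GC offset (lowess, span 0.3), all groups in 1 fit, a term for the set of library numbers, and each library left out. The log2 CPM used a prior count of 2. Replicate pairs differed by 1.29 to 36.3 times the Poisson expectation (66 pairs), and none was identical.

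The 8 members and the lists below were chosen with earlier results of these data known. The rule was to name all 8 in each comparison and of each list at most the 2 called genes with the largest change, but several comparisons give members that were not called by their range or count only. Lists: prefoldin (PFDN1, PFDN2, VBP1, PFDN4, PFDN5, PFDN6); phosducin-like (PDCL, PDCL3, TXNDC9); tubulin cofactors (TBCA to TBCE); cytosolic heat shock (HSPA1A, HSPA1B, HSPA8, HSPA4, HSPH1, HSP90AA1, HSP90AB1, DNAJA1, DNAJB1, BAG3, STIP1, AHSA1, CHORDC1, HSPB1, FKBP4, CACYBP); mitochondrial chaperonin (HSPD1, HSPE1); clients (ACTB, ACTG1, TUBA1B, TUBA1C, TUBB, TUBB4B, CDC20, FZR1, GNB1, GNB2, VHL, HDAC3, STAT3, with 1 further gene of the fixed list that is not reported here and was left out of the counts); related genes (CCT6B, CCT8L2, MKKS, BBS10, BBS12). The comparisons of DMSO at 24 h against 6 h were added after the data had been seen.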

Additional observations from a re-analysis of the deposited data

Results flagged for a closer look

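Tests of the difference between 2 responses picked out the subunits below, with edgeR's adjusted p under 0.05. For HFG in AMO1 the log2 response at 24 h minus that at 6 h was 0.68 in CCT3, 0.36 in CCT5, 0.49 in CCT6A and 0.25 in CCT7. For CFZ in AMO1 the same difference was -0.89 in TCP1 and -0.72 in CCT4. For NCP26 at 24 h the response in L363-CFZr minus that in AMO1 was 0.82 in CCT4, a call that was lost in 9 of the leave-outs of 1 library. For HFG at 24 h this line difference was 0.90 in TCP1, 0.65 in CCT2 and 0.79 in CCT4. Time coincides with the storage of the pellets, and the 24 h AMO1 libraries of NCP26, HFG and CFZ replicates 2 and 3 are of another set of library numbers than their controls, so these cannot be told apart from time and treatment here. The part of the 2 libraries that stood apart is given as values in the report.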

How the results depend on the processing

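Over 134 subunit values that passed the test, 1802 alternative values gave 1600 with the same direction and call, 200 with the same direction but no call, and 2 reversals. With a term for the set, CCT6A went to 0.05 for NCP26 against DMSO in AMO1 at 24 h and CCT8 to 0.03 for HFG in L363-CFZr at 6 h. Of the other genes named, 92 values gave 1063, 131 and 2 among 1196, TBCA going to -0.09 (NCP26, AMO1, 24 h) and TBCB to 0.06 (HFG, L363-CFZr, 6 h) under the GC offset. The cause was not tested. Counting error of a subunit in a library had a median of 2.98% and reached 6.32%, so a difference of that size between single libraries can be counting error alone.

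With the term for the set, the number of subunits called went to 2 from 8 for NCP26 and for HFG against DMSO in AMO1 at 24 h, to 2 from 0 for CFZ there, to 3 from 8 for the lines with DMSO at 6 h, to 0 from 3 for HFG and 0 from 4 for halofuginol in L363-CFZr at 6 h, and to 2 from 4 for the HFG effect over time. It went to 1 from 3 for the line difference of HFG at 24 h, to 0 from 1 for that of NCP26 at 24 h, and to 2 from 0 for that of NCP26 at 6 h. The term rests on AMO1 CFZ at 24 h and L363-CFZr NCP22 at 6 h, the only groups that span sets. With it the shares of all genes called were 31.3% for HFG and 29.4% for CFZ in AMO1 at 24 h. They were 34.5% for the lines at 6 h, and 19.6% for HFG and 0.73% for halofuginol in L363-CFZr at 6 h. The HFG effect over time had 24.6%, and those 3 line differences had 13.1%, 4.73% and 6.44%. In all groups without that term, the number of subunits called went to 8 from 2 for the lines with DMSO at 24 h, to 7 from 3, 5 from 1 and 2 from 0 for those 3 line differences, to 3 from 0 for CFZ at 24 h, to 4 from 2 for the CFZ effect over time, to 0 from 4 for halofuginol in L363-CFZr at 6 h and to 6 from 2 for L363-CFZr DMSO over time. The shares of all genes called were then 26.6%, 15.7% and 6.42% for those 3 line differences and 45.2% for CFZ at 24 h. They were 28.1% for the CFZ effect over time and 6.94% for halofuginol in L363-CFZr at 6 h. In both fits the number of subunits called went to 4 from 7 for HFG against halofuginol and to 3 from 6 for NCP26 against HFG in AMO1 at 24 h, to 3 from 8 for HFG against halofuginol in L363-CFZr at 6 h, to 1 from 4 for NCP22 and 0 from 1 for halofuginol in AMO1 at 6 h, and to 1 from 0 for HFG in L363-CFZr at 24 h. In the same order, the shares of all genes called without and with the term were 50.7% and 51.3%, 36.2% and 36.8%, 24.7% and 24.5%, 8.39% and 8.9%, 1.04% and 1.24%, and 17.3% and 17%. The GC offset gave 7 for HFG and 1 for halofuginol in L363-CFZr at 6 h, 2 for halofuginol in AMO1 at 6 h, 2 for HFG against halofuginol in L363-CFZr at 24 h, 0 for L363-CFZr DMSO over time and 1 for the NCP26 line difference at 6 h. For the latter 2 DESeq2 gave 4 and 3, where it called 1994 and 362 genes, and no filter gave 1 for the last. With the GC offset the shares of all genes called were 2.39% for halofuginol in L363-CFZr and 1.9% in AMO1, both at 6 h. They were 20.5% for HFG against halofuginol in L363-CFZr at 24 h. L363-CFZr DMSO over time had 12.3% and the NCP26 line difference at 6 h 3.74%. The share of all genes called moved too. With the term for the set it was 25.2% for NCP26 against DMSO in AMO1 at 24 h, from 6547 of 10787 genes. In all groups without that term it was 58.2% for the lines with DMSO at 24 h, from 4454 of 11170. For L363-CFZr DMSO over time it was 46.6% there, from 1563 of 10554. With the GC offset it was 38.3% for HFG in L363-CFZr at 6 h, from 5706 of 10478, although more subunits were called.

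With the replicate block the NCP26 line difference at 24 h went to 0 from 1, and HFG against halofuginol in L363-CFZr at 24 h to 2 from 0. It moved no other count of subunits by more than 1.5 times. Same-numbered replicates did not pair: over 34 comparisons 102 correlations of deviations ran from -0.32 to 0.27, with a median of -0.005, and in 0 comparisons were all above 0.1.

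Leaving out 1 library at a time gave 1 to 4 subunits for NCP22 and 0 to 2 for halofuginol in AMO1 at 6 h, 0 to 4 for CFZ in AMO1 at 24 h (4 without CFZ replicate 2), 0 to 4 for NCP26 in L363-CFZr at 6 h (4 without NCP26 replicate 2), and 0 to 5 and 0 to 2 for NCP26 and HFG in L363-CFZr at 24 h. It gave 2 to 7 for the lines at 24 h and 0 to 5 for L363-CFZr DMSO over time, each highest without L363-CFZr DMSO replicate 2, as were 0 to 4 and 1 to 8 for the line differences of NCP26 and HFG at 24 h. For NCP26 against NCP22 the range was 1 to 5 in AMO1 and 0 to 2 in L363-CFZr, both at 6 h, for HFG against halofuginol 4 to 6 in AMO1 and 0 to 1 in L363-CFZr, both at 24 h, and for NCP26 against CFZ at 24 h 2 to 7. It was 0 to 1 for the NCP26 and 2 to 4 for the CFZ effect over time, and 0 to 2 for the NCP26 line difference at 6 h. Where a library is named here, a share of all genes called without it is given above.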
